A study of Mus musculus with 40 samples.

Results

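This report compares mouse 1-cell embryos made by somatic cell nuclear transfer (SCNT, cloning) with fertilized 1-cell embryos when both were exposed to α-amanitin. The members are the arrays whose titles give the 1-cell stage, the SCNT or fertilized origin and a letter A before the replicate number, which gave 4 SCNT and 4 fertilized arrays, 8 of the 39 arrays with values in a series planned as 40. The series measured gene expression in SCNT, fertilized and parthenogenetic embryos at the 1-cell and 2-cell stages, with and without α-amanitin for the first 2 kinds. All embryos are labelled B6D2, a hybrid mouse background. The SCNT embryos were rebuilt with nuclei of cumulus cells, the somatic cells that surround the ovulated oocyte, taken from B6D2 females. Replicates 1 to 3 of the treated SCNT group were grown in MEMa medium with amanitin. The labels of SCNT replicate 4 and of all 4 treated fertilized samples name neither the medium nor the inhibitor, and only the letter A and the series' plan put them in the treated groups. A medium called KSOM is named for a single untreated fertilized sample, so culture medium and embryo origin cannot be told apart. The labels do not give the number of embryos per sample, the age of the embryos in hours, or the time and dose of the inhibitor. They also do not say whether replicates came from separate collections, so each p-value measures only spread between samples, which may be technical. For single genes that spread was pooled over the 10 groups of all 39 arrays. The median standard deviation of a gene within a group ran from 0.178 to 0.354 log2 units across these groups.

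As background, the ovulated mouse oocyte holds a store of maternal mRNA that directs the first cell cycle, and most of this store is removed around the start of embryonic transcription. Some maternal mRNAs are kept dormant with short poly(A) tails and are translated after their tails are lengthened, whereas others are shortened at the tail by the CCR4-NOT deadenylase and degraded. α-Amanitin inhibits RNA polymerase II, so in treated embryos most mRNA was present in the egg or was carried in with the sperm or the donor cell, as far as the block was complete. Whether the block was complete was not tested. The measured molecule was poly(A) RNA. A change in the amount of a transcript and a change in the length of its poly(A) tail therefore cannot be told apart here. Likewise, fewer cells of a contaminating type and less RNA per cell cannot be told apart in pooled samples.

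The arrays carried oocyte RNA in both groups. All 9 measured oocyte and embryo markers, including Zp3, Gdf9, Zar1 and Dppa3, were above the overall median level of 5.34 log2 units on all 8 arrays. Pearson correlations across genes were 0.960 to 0.965 among the SCNT arrays, 0.977 to 0.980 among the fertilized arrays and 0.946 to 0.957 between the groups. The first principal component held 38.6% of the variance and separated the groups, while the second held 14.2% and set SCNT replicate 4 apart from the other SCNT arrays. The median within-group standard deviation of a gene was 0.265 log2 units in SCNT and 0.178 in fertilized embryos. Poly(A) spike-in controls, which are added to the RNA before labelling, averaged 3.67 to 4.12 log2 units on the 4 SCNT arrays and 8.71 to 8.85 on the 4 fertilized arrays (exact two-sided permutation p = 0.0286, the smallest that 4 against 4 arrays allow). The untreated 1-cell SCNT arrays also had them at background, 3.75 to 4.03, and every other group of the series had them at 7.29 or higher. Probe sets for 18S ribosomal RNA averaged 13.76 in SCNT and 13.03 in fertilized embryos, and those for the B2 repeat 13.63 and 12.82 (exact p = 0.0286 for each, 0.05 after adjustment over the 7 array measures). The median of an array before normalization was 5.24 in SCNT and 4.96 in fertilized embryos on average (exact p = 0.0286). The 3′ minus 5′ difference of the actin control averaged 2.60 ± 0.53 (SD, n = 4) against 1.95 ± 0.12 (exact p = 0.0571). The part of sample handling in the gene differences below was not tested, and handling that differed between the SCNT and fertilized 1-cell samples cannot be told apart from embryo origin.

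With transcription inhibited, 3214 of 14916 genes (21.5%) differed between SCNT and fertilized 1-cell embryos at an adjusted p under 0.05, the threshold for a call here. Of these, 1513 genes (10.1%) were higher and 1701 genes (11.4%) were lower in SCNT embryos. Most differences were small, with a median size of 0.685 log2 units among called genes. In SCNT embryos 262 genes were higher and 420 lower by at least 2-fold, and 10 were higher and 16 lower by at least 4-fold. The 4 SCNT arrays lay wholly above or wholly below the 4 fertilized arrays for 4112 genes (27.6%), of which 2789 were also called. Calls rose with the level of the gene, from 6.01% in the lowest tercile of mean level to 16.3% in the middle and 42.4% in the highest tercile. In that highest tercile 20.8% of genes were called higher and 21.5% lower, which is the closer background for the gene groups below, since most of them are made of abundant transcripts.

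The balance of directions depended on the scale. After quantile normalization 47.1% of the calls were higher in SCNT. On the values as deposited, which the authors had scaled to a common trimmed mean, 2508 genes were higher and 1696 lower, so that 59.7% of calls were higher. When each array was centred on its median, 772 genes were higher and 3049 lower, so that 20.2% were higher. The median difference over all genes was 0.01 log2 units as reported, 0.16 on the deposited scale and -0.13 after median centring. Of the named genes that were called on any of the 3 scales, Btg4 and Zp2 changed sign between them. The direction of small differences rests on the choice of scale, and gene groups are given with their counts under the other scales where the balance turned. With the actin 3′ minus 5′ control of each array as a covariate, an alternative chosen after seeing the data, 2664 genes were called. Of the named genes 17 then lost their call, namely Hmox1 (1.30), Cdc6 (1.06), Rfc2 (0.97), Sdhd (0.86), Tmsb10 (0.64), Rps24 (0.43), Rpl7a (0.35), Mdh2 (0.65), Tekt2 (0.77), Zp2 (0.18), Cpeb1 (-0.42), Cul4a (-0.79), Atg4a (-0.90), Psmb7 (-0.95), Pfkfb3 (-0.67), Mos (-0.50) and Cd68 (-0.37).

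**Figure D1:**
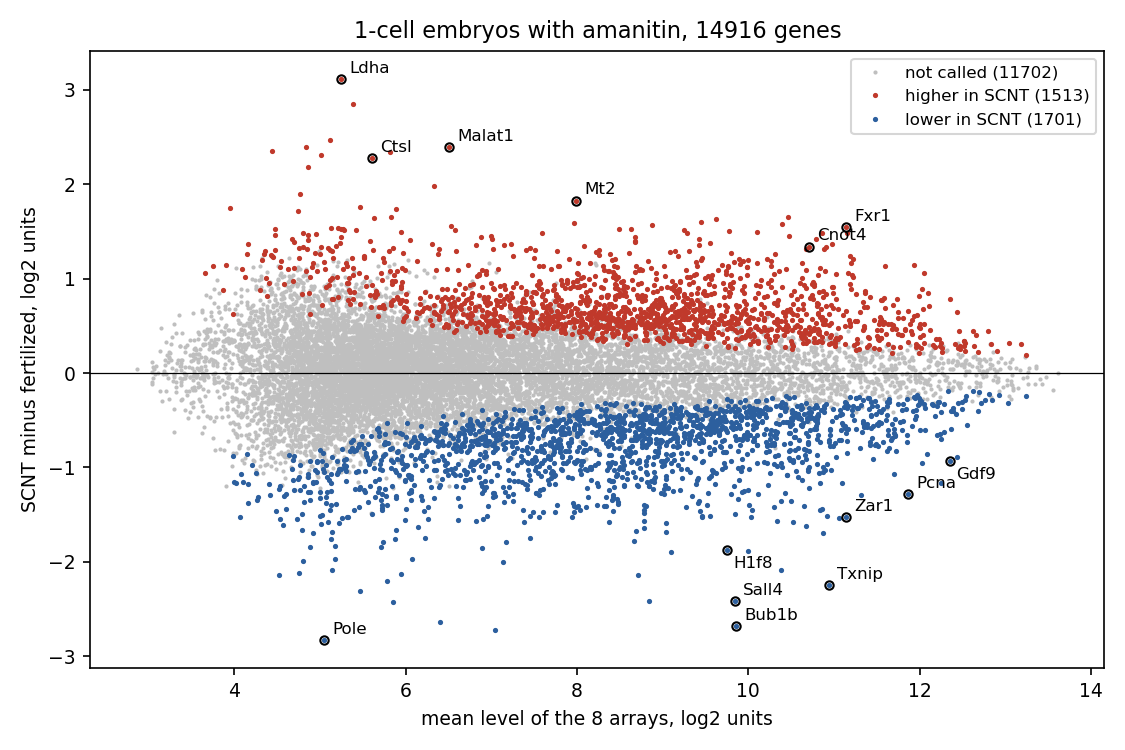
The difference between SCNT and fertilized 1-cell embryos with amanitin (vertical axis, log2 units) is plotted against the mean level over the 8 arrays (horizontal axis, log2 units) for 14916 genes, each a point, with 1513 called higher in red, 1701 called lower in blue and the rest in grey. Large increases (Ldha, Ctsl) lie mostly at low mean levels, whereas large decreases include abundant oocyte transcripts such as Bub1b, Sall4 and Txnip.

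Among called genes whose 2 groups of arrays did not overlap, the largest increases in SCNT embryos were in Ldha, Akr1c18, Defa31, Malat1 and Inhba. The leading decreases were picked by the same rule, so the lack of overlap is no further support for these genes. Ldha, the A subunit of lactate dehydrogenase, was at 6.72, 7.03, 6.82 and 6.63 log2 units on SCNT arrays 1 to 4 and at 3.41, 3.69, 3.25 and 4.39 on the fertilized arrays. The fertilized arrays were all under the overall median of 5.34, near background. The difference was 3.11 ± 0.33 (standard error from limma, n = 4 and 4, adjusted p = 2.2e-09). Ctsl, a lysosomal cysteine protease, was at 6.60, 6.87, 6.88 and 6.63 in SCNT and at 4.71, 3.69, 4.43 and 5.04 in fertilized embryos, a difference of 2.27 ± 0.17 (adjusted p = 8.7e-13). Malat1, a long non-coding RNA that is kept in the nucleus, was at 7.35, 7.63, 7.63 and 8.19 in SCNT and at 5.55, 5.52, 5.07 and 5.08 in fertilized embryos, a difference of 2.39 ± 0.35. All 5 other probe sets of Malat1 were also higher in SCNT, by 0.47 to 2.53.

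The metallothioneins Mt1 and Mt2, small metal-binding proteins, were both higher. Mt2 was at 8.90, 8.88, 9.28 and 8.53 in SCNT and at 6.93, 6.97, 7.33 and 7.07 in fertilized embryos, a difference of 1.83 ± 0.17 (adjusted p = 8.9e-11). Unlike Ldha, Ctsl and Malat1, Mt2 was above the overall median on all 8 arrays. Mt1 was higher by 2.34 ± 0.28, from a fertilized mean of 4.65. Its other probe set read a difference of -0.08, and Mt1 is read by probes that other transcripts may share.

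Several leading increases were in genes that cumulus or granulosa cells are known to express, and these lay at low levels. Of 34 listed genes of these cells that were tested, 7 (20.6%) were called higher and 4 (11.8%) lower. Over all genes these shares were 10.1% and 11.4%, and 5 of the 34 were in the highest tercile of level. The 4 decreases were Bmpr1b (-1.59), Fdx1 (-0.94), Kitl (-0.63) and Col4a1 (-0.61), which are described further below. Tnfaip6, which encodes a hyaluronan-binding protein of the expanded cumulus matrix, was at 5.87, 5.85, 5.04 and 5.70 in SCNT and at 3.32, 3.08, 3.40 and 3.25 in fertilized embryos, a difference of 2.35 ± 0.36. Inhba, the activin and inhibin beta A subunit, was at 6.14, 6.18, 5.46 and 6.35 against 3.51, 3.87, 3.48 and 3.71, a difference of 2.39 ± 0.45. Hsd3b1, an enzyme of steroid hormone synthesis, was at 6.94, 6.89, 6.20 and 4.62 against 3.66, 3.88, 4.03 and 3.86. SCNT replicate 4 was the lowest of its group for Hsd3b1. Akr1c18, the enzyme that inactivates progesterone, was at 6.20, 6.43, 7.22 and 7.38 against 3.99, 3.84, 3.91 and 4.10, a difference of 2.85 ± 0.45.

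The remaining leading increases were Sgk1 (1.98), a serum- and glucocorticoid-regulated kinase, Ier3 (1.76), an immediate early response gene, the X-linked genes Bex3 (2.18) and Bex4 (1.74), Defa31 (2.47) and Rps19 (1.74). Sgk1 had a fertilized mean of 5.34 and an SCNT mean of 7.32, so the fertilized arrays lay around the overall median. Defa31 belongs to a family of near-identical defensins and its probe set may cross-hybridize, so the gene behind the signal is uncertain. Rps19 encodes an abundant ribosomal protein, yet its probe set read 4.82 in SCNT and 3.08 in fertilized embryos, both under the overall median. Of the 1513 genes called higher, 132 had a fertilized mean under the overall median. A fold change of such a gene on this scale understates the change, because a constant was added before the logarithm.

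**Figure D2:**
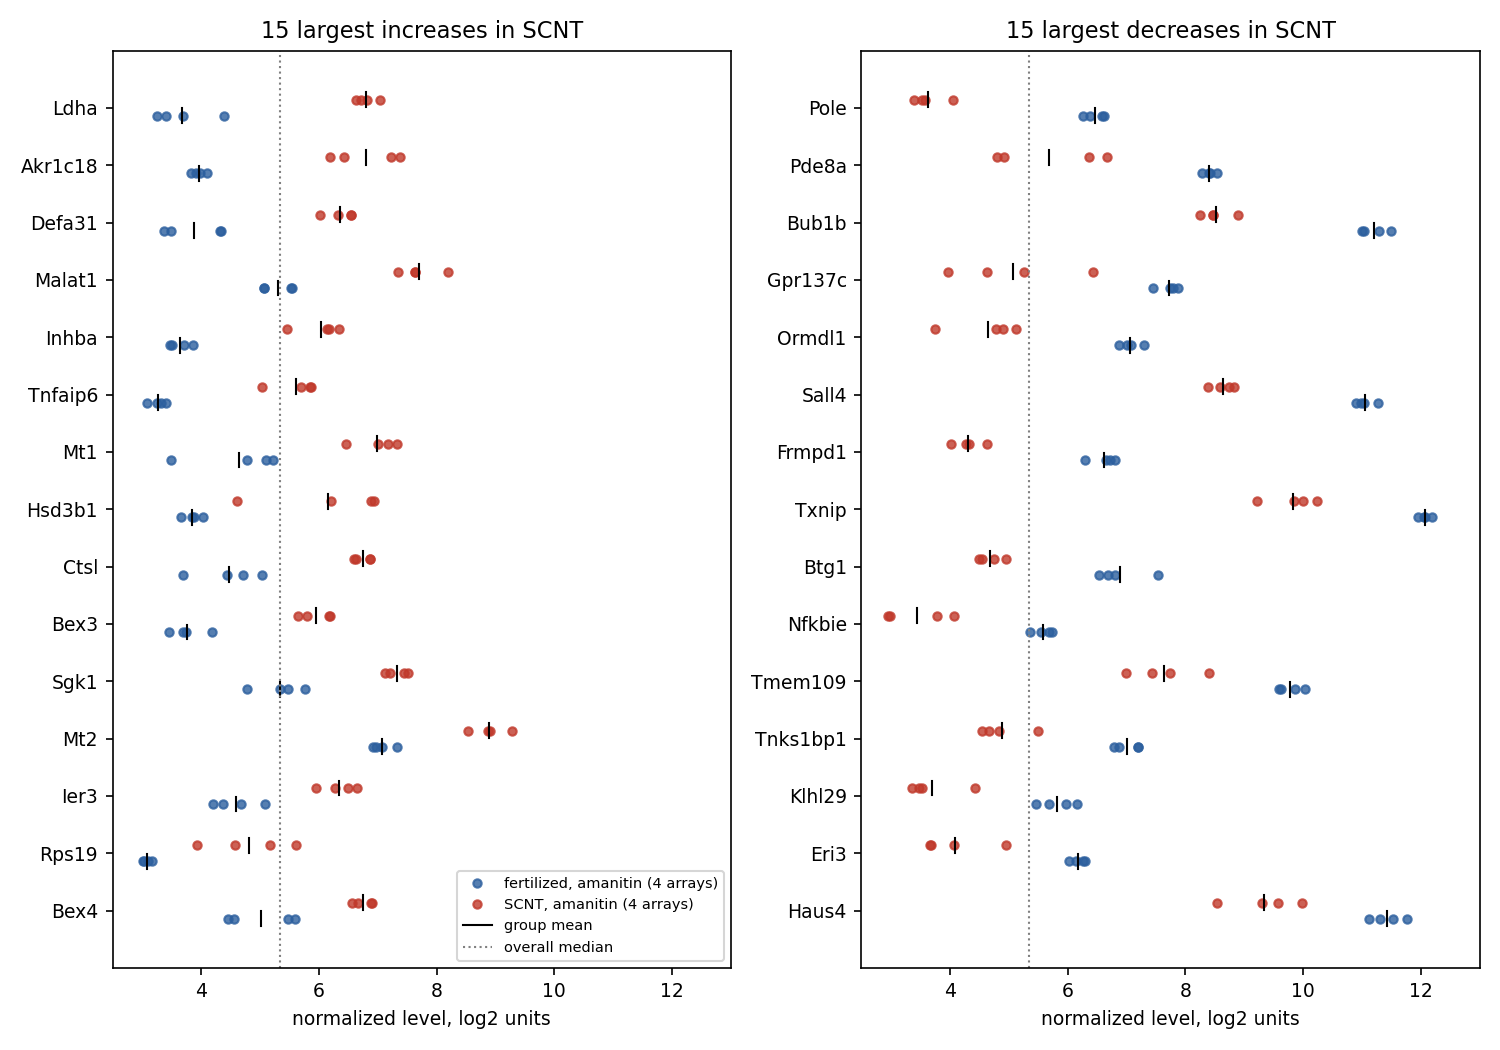
Normalized levels (horizontal axis, log2 units) of the 15 called genes with the largest increases (left) and decreases (right) whose groups did not overlap, with a point per array for 4 SCNT (red) and 4 fertilized (blue) arrays, a black bar at each group mean and a dotted line at the overall median. Most fertilized points on the left lie under the dotted line, while the fertilized points of Bub1b, Sall4, Txnip and Haus4 on the right lie at 10.91 or higher.

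The decreases included transcripts that were abundant in fertilized embryos. Bub1b, the BubR1 kinase of the spindle checkpoint, was at 8.89, 8.47, 8.25 and 8.47 log2 units on SCNT arrays 1 to 4 and at 11.49, 10.9995, 11.04 and 11.29 on the fertilized arrays. The difference was -2.68 ± 0.17 (adjusted p = 2e-14), with the groups more than 2 log2 units apart. The probe set behind these Bub1b levels may also read other transcripts, and the other 2 probe sets of Bub1b differed by -2.49 and 0.12. Sall4, a zinc finger transcription factor of early embryos and pluripotent cells, was at 8.59, 8.82, 8.38 and 8.75 in SCNT and at 11.27, 11.03, 10.91 and 10.99 in fertilized embryos, a difference of -2.42 ± 0.18 (adjusted p = 4.6e-13). The other probe set of Sall4 differed by 0.15, so the 2 readouts of this gene disagree.

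Txnip, the thioredoxin-interacting protein, was at 10.23, 9.998, 9.84 and 9.22 in SCNT and at 12.06, 12.06, 12.19 and 11.96 in fertilized embryos, a difference of -2.25 ± 0.22, and its other probe set was also lower (-0.64). Haus4, a subunit of the augmin complex that builds the spindle, was at 9.30, 8.54, 9.98 and 9.57 against 11.30, 11.52, 11.76 and 11.12, a difference of -2.08 ± 0.18. Pde8a, a phosphodiesterase that breaks down cyclic AMP, was at 6.37, 6.67, 4.80 and 4.92 against 8.53, 8.40, 8.28 and 8.42. The SCNT arrays of Pde8a fell into a higher and a lower pair. Tmem109 was lower by 2.14 units in SCNT (SCNT mean 7.64, fertilized mean 9.78), although its 3 other probe sets ranged from -1.73 to 0.47.

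Several further decreases took a transcript from a measurable level to near background. Pole, the catalytic subunit of the replicative DNA polymerase epsilon, had a mean of 6.46 in fertilized and 3.64 in SCNT embryos (-2.82 ± 0.37). Btg1, an antiproliferative protein that binds the CCR4-NOT deadenylase, was at 4.95, 4.56, 4.75 and 4.50 in SCNT and at 7.54, 6.53, 6.80 and 6.69 in fertilized embryos (-2.20 ± 0.22), and its other probe set was lower by -1.09. Ormdl1, a regulator of sphingolipid synthesis, had a mean of 7.07 in fertilized and 4.64 in SCNT embryos (-2.42). The remaining members were Gpr137c (-2.64), Frmpd1 (-2.31), Nfkbie (-2.14), an inhibitor of NF-κB, Tnks1bp1 (-2.13), Klhl29 (-2.12) and Eri3 (-2.09). Nfkbie did not pass without the low-level filter, since a different probe set then stood for the gene (-0.87, adjusted p = 0.18). In all, 178 of the 1701 genes called lower had an SCNT mean under the overall median.

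**Figure D3:**
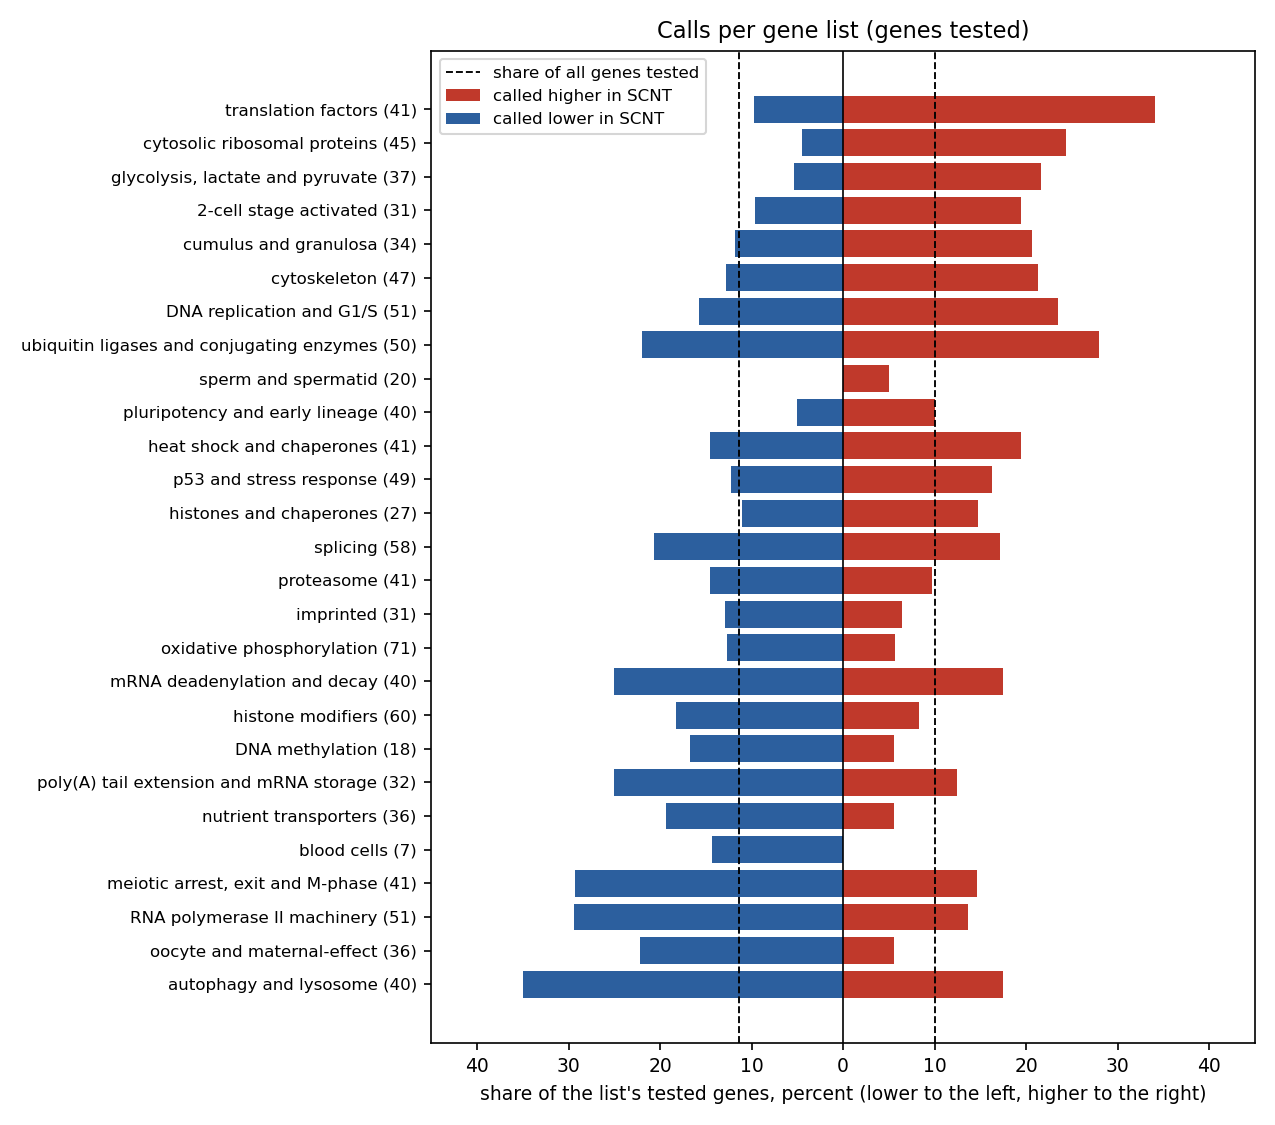
For 27 gene lists the bars give the share of tested genes called higher (red, to the right) or lower (blue, to the left) in SCNT embryos with amanitin (horizontal axis, percent), with the number tested in brackets and dashed lines at the shares over all genes tested, 10.1% and 11.4%. Translation factors reach 34.1% higher, and autophagy and lysosome genes reach 35.0% lower. The highest tercile of level held 35 of 41 translation factors and 20 of 40 autophagy and lysosome genes. In that tercile the shares over all genes were 20.8% higher and 21.5% lower, which the dashed lines do not show.

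Among oocyte and maternal-effect genes, 2 of 36 (5.56%) were called higher and 8 (22.2%) lower, with a median difference of -0.10. In the highest tercile of level were 33 of the 36, and there 20.8% of all genes were called higher and 21.5% lower. The share lower was therefore near that background. H1f8, the oocyte linker histone that is replaced by somatic forms in the embryo, was at 8.67, 8.82, 9.24 and 8.55 in SCNT and at 10.79, 10.75, 10.74 and 10.47 in fertilized embryos, a difference of -1.87 ± 0.17 (adjusted p = 5e-11). Zar1, an oocyte factor that binds and stores maternal mRNA, was at 10.49, 10.42, 10.48 and 10.12 against 11.96, 11.77, 11.88 and 11.98 (-1.53 ± 0.13). For both genes every SCNT array was below every fertilized array. Gdf9, a growth factor that the oocyte secretes, was lower by 0.93 ± 0.08 log2 units (means 11.89 and 12.82), and its partner Bmp15 was higher (0.46 ± 0.12, means 12.35 and 11.89).

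The zona pellucida glycoproteins Zp3 (-0.99 ± 0.12) and Zp1 (-0.85 ± 0.13) were lower, and so was Nlrp14 (-0.96 ± 0.13), a maternal-effect gene of the NLR family. The remaining called genes of the list were Tle6 (-0.76 ± 0.11), a gene of the subcortical maternal complex, Uchl1 (-0.48 ± 0.12), a deubiquitinase of the oocyte, and Zp2 (0.26 ± 0.10, adjusted p = 0.048). Zp2 was lower after median centring (-0.10) and lost its call on the deposited scale (0.19), without any of the SCNT replicates 1 (0.21), 2 (0.27) and 3 (0.22), and without fertilized replicate 2 (0.20) or 3 (0.24). Of the 26 genes of the list that were not called, Dppa3 differed by 0.02, Tcl1 by 0.06 and Nlrp5 by 0.23, although the Nlrp5 arrays did not overlap. On the deposited scale these 3 passed, at 0.49 for Dppa3, 0.73 for Tcl1 and 0.50 for Nlrp5. On the deposited scale 12 of these 36 genes were higher and 8 lower, so the balance of the list turned. Median centring gave 5 higher and 13 lower, and Bmp15 did not pass there (0.37, adjusted p = 0.056).

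Components of mRNA deadenylation and decay moved in both directions, with 7 of 40 (17.5%) called higher and 10 (25%) lower (median -0.06). In the highest tercile of level, which held 25 of the 40, the shares over all genes were 20.8% and 21.5%. Cnot4, a ubiquitin ligase linked to CCR4-NOT, was at 11.61, 11.35, 11.24 and 11.32 in SCNT and at 10.10, 9.93, 9.87 and 10.26 in fertilized embryos (1.34 ± 0.14), but its other probe sets ranged from -0.65 to 1.47. The CCR4-NOT subunit Cnot2 was higher by 0.85 ± 0.11, with all 4 other probe sets higher too (0.56 to 1.16). Tob1, an adaptor that recruits the deadenylase, was higher by 0.80 ± 0.18. Cnot7, a catalytic deadenylase subunit, was at 11.64, 12.11, 11.99 and 11.87 against 12.57, 12.56, 12.65 and 12.60 (-0.70 ± 0.09), with both other probe sets lower. The subunit Cnot11 was lower by 0.89 ± 0.12 log2 units and the nuclear exonuclease Xrn2 by 1.22 ± 0.19.

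Btg4, the adaptor needed for maternal mRNA clearance, was near the top of the scale in both groups, at 13.37 to 13.52 in SCNT and 13.62 to 13.66 in fertilized embryos. Its difference of -0.18 ± 0.08 did not pass the test (adjusted p = 0.11), and it turned to 0.65 (adjusted p = 5.1e-05) on the deposited scale. The list also turned there, to 10 higher and 9 lower.

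Of 32 poly(A) tail extension and mRNA storage factors, 8 (25%) were called lower and 4 (12.5%) higher (median -0.01). In the highest tercile of level, which held 23 of the 32, 21.5% of all genes were called lower and 20.8% higher. The share lower was therefore near that background. The order of the counts held on the deposited scale (8 against 5) and after median centring (13 against 3). Papola, the canonical poly(A) polymerase, was at 5.87, 6.06, 6.24 and 5.53 in SCNT and at 7.39, 7.41, 7.30 and 7.24 in fertilized embryos (-1.41 ± 0.16), and its 4 other probe sets were lower by -1.28 to -0.13. With only the 8 arrays compared a different probe set stood for Papola, and its difference was -0.24 (adjusted p = 0.13). Lsm14b (-1.22 ± 0.15) and Patl2 (-0.93 ± 0.18), RNA-binding proteins of oocyte mRNA storage, were lower. Cpeb1, which controls cytoplasmic polyadenylation, was lower by 0.50 ± 0.14 log2 units. Fxr1, an RNA-binding protein of the fragile X family, was at 12.02, 11.95, 11.90 and 11.80 against 10.45, 10.31, 10.14 and 10.60 (1.54 ± 0.11, adjusted p = 4.6e-13). Its 3 other probe sets were higher by 0.05 to 0.67.

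Genes of meiotic arrest, meiotic exit and M-phase were called lower for 12 (29.3%) and higher for 6 (14.6%) of 41 (median -0.03). In the highest tercile of level, which held 34 of the 41, the shares over all genes were 21.5% and 20.8%. The order held on the deposited scale (10 against 9) and after median centring (15 against 6). Besides Bub1b, the largest decrease was in Espl1, the separase that cleaves cohesin at anaphase, which was at 8.59, 8.88, 8.62 and 8.73 in SCNT and at 10.20, 10.23, 10.09 and 10.15 in fertilized embryos (-1.46 ± 0.16). Pkmyt1, an inhibitory kinase of CDK1, was lower by 1.41 ± 0.21 log2 units. Its other probe set was 0.25 and stood for the gene when only the 8 arrays were used, which gave 0.26 (adjusted p = 0.36). Anapc10, a subunit of the anaphase-promoting complex (-0.74 ± 0.13), and the mitotic cyclin Ccnb2 (-0.72 ± 0.15) were also lower.

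Camk2g, a calcium- and calmodulin-dependent kinase that acts at egg activation, was higher by 1.16 ± 0.11 log2 units, but its other probe set was lower by -1.11 and their mean did not differ (0.03). Wee2, the oocyte kinase that keeps CDK1 off, was at 12.80, 12.59, 12.69 and 12.65 against 12.27, 12.12, 12.27 and 12.29 (0.44 ± 0.12, adjusted p = 0.0046). Averaging its probe sets gave 0.33 (adjusted p = 0.065). Mos, the kinase that holds the egg in metaphase, passed narrowly (-0.67 ± 0.24, adjusted p = 0.044). It no longer passed on the deposited scale (-0.62, adjusted p = 0.077), or when any array but SCNT replicate 1 was left out (adjusted p of 0.063 without SCNT replicate 2, 0.086 without SCNT replicate 3, 0.13 without SCNT replicate 4, 0.09 without fertilized replicate 1, 0.065 without fertilized replicate 2, 0.08 without fertilized replicate 3 and 0.087 without fertilized replicate 4).

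DNA replication genes were called higher for 12 (23.5%) and lower for 8 (15.7%) of 51 (median 0.03). This balance turned to 5 higher and 16 lower after median centring. The highest tercile of level held 38 of the 51, and there 20.8% of all genes were called higher and 21.5% lower. Pcna, the sliding clamp of the DNA polymerases, was at 10.76, 11.26, 11.52 and 11.34 in SCNT and at 12.63, 12.48, 12.50 and 12.40 in fertilized embryos (-1.28 ± 0.14, adjusted p = 4.5e-09). With Pole and the primase subunit Prim2 (-1.13 ± 0.25) it made up the 3 largest decreases of the list. The 2 other probe sets of Prim2 read -1.33 and 1.05, and averaging all 3 gave -0.47 (adjusted p = 0.16). Cdc6, which loads the replicative helicase, was higher (1.12 ± 0.37, adjusted p = 0.026), and so was the clamp loader subunit Rfc2 (1.05 ± 0.32), whose 2 other probe sets were also higher. Cdc6 did not pass after median centring (0.84) or without SCNT replicate 1 (1.03), SCNT replicate 2 (1.09) or fertilized replicate 2 (1.05), and Rfc2 did not pass without fertilized replicate 1 (0.91). The S-phase transcription factor E2f1 was higher by 1.09 ± 0.12 on its brightest probe set, whereas its 2 other probe sets differed by -0.43 and -0.11 and the mean of all 3 did not pass (0.18, adjusted p = 0.43).

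The translation machinery was called higher more often than lower. Of 45 cytosolic ribosomal protein genes, 11 (24.4%) were higher and 2 (4.44%) lower (median 0.14). Of 41 translation factors, 14 (34.1%) were higher and 4 (9.76%) lower (median 0.06). In the highest tercile of level were 29 of these ribosomal protein genes and 35 of these factors. In that tercile 20.8% of all genes were called higher and 21.5% lower, so the ribosomal share higher was near background. The deposited scale gave 13 and 3 of the ribosomal protein genes and 17 and 4 of the factors, but median centring turned both lists, to 3 higher and 8 lower and to 5 higher and 8 lower. Eif3h, a subunit of the initiation factor eIF3, was at 10.58, 10.08, 10.48 and 10.17 in SCNT and at 9.11, 9.20, 9.17 and 9.30 in fertilized embryos (1.13 ± 0.14). Eif4h, a helper of the eIF4A helicase, was higher by 1.09 ± 0.14, and its 4 other probe sets were higher by 0.11 to 1.35. Eef1e1, an auxiliary protein of the tRNA synthetase complex, was higher by 1.09 ± 0.19.

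Eif1ax, an initiation factor that binds the small subunit, was higher by 0.85 ± 0.12, while its 2 other probe sets were lower by -1.05 and -0.65 and the mean of the probe sets was -0.28 (adjusted p = 0.31). The related Eif1a did not pass (0.46, adjusted p = 0.27) except on the deposited scale (0.74, adjusted p = 0.035). Among ribosomal proteins, Rps7 was at 11.49, 11.16, 11.06 and 10.82 in SCNT and at 10.44, 10.05, 10.20 and 10.62 in fertilized embryos (0.81 ± 0.13, adjusted p = 1.4e-05). The genes Rps24 (0.85 ± 0.21) and Rpl7a (0.78 ± 0.17) were higher, but each had 1 or more overlapping arrays and neither passed after median centring (0.49 and 0.42). Rpl4, at 11.06 in SCNT and 11.01 in fertilized embryos, did not pass (0.05 ± 0.19).

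The RNA polymerase II machinery was called lower for 15 and higher for 7 of 51 genes (29.4% and 13.7%), with a median of 0.03. That order held on the deposited scale (16 against 10) and after median centring (19 against 2). The highest tercile of level held 37 of the 51, and there 21.5% of all genes were called lower and 20.8% higher. Taf7, a subunit of the general factor TFIID, was at 8.47, 8.61, 8.99 and 8.83 in SCNT and at 10.01, 9.97, 10.48 and 9.95 in fertilized embryos (-1.38 ± 0.26), although its 2 other probe sets differed by 0.08 and 0.20. The elongation factor cyclin Ccnt1 was lower by 1.02 ± 0.27 log2 units on a probe set that disagreed with its other (0.98), and Gtf2f2, a subunit of TFIIF, by 0.96 ± 0.22. Polr2b, the second largest subunit of the polymerase, was higher (0.91 ± 0.23), but not after median centring (0.54, adjusted p = 0.059). Polr2a, the largest subunit and the target of α-amanitin, did not pass (-0.24 ± 0.25, means 6.85 and 7.09).

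Splicing factors moved both ways, with 10 of 58 (17.2%) called higher and 12 (20.7%) lower (median 0.05). The highest tercile of level held 51 of the 58, and there 20.8% and 21.5% of all genes were called. Both shares were therefore near that background. On the deposited scale 13 were higher and 12 lower. Prpf8, a core protein of the spliceosome, was lower by 1.32 ± 0.16 log2 units, and Prpf3, which joins it in the same particle, was higher by 1.05 ± 0.25.

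Among 18 DNA methylation genes 3 (16.7%) were lower and 1 (5.56%) higher (median -0.25). Over all genes the shares were 11.4% and 10.1%. The highest tercile of level held 9 of the 18, and there they were 21.5% and 20.8%. Trim28, a co-repressor that protects methylation at imprinted genes, was at 10.04, 10.58, 9.29 and 9.89 in SCNT and at 11.35, 11.25, 11.41 and 11.41 in fertilized embryos (-1.40 ± 0.15), and its other probe set was lower by -1.82. The de novo methyltransferase Dnmt3a was lower by 0.71 ± 0.11 log2 units, with 4 other probe sets from -0.39 to 0.68 and a mean over probe sets of -0.17 (adjusted p = 0.35). Its cofactor Dnmt3l was higher by 0.52 ± 0.13, but not after median centring (0.19, adjusted p = 0.36). The maintenance methyltransferase Dnmt1 did not pass (-0.29 ± 0.21, adjusted p = 0.35), but did after median centring (-0.60, adjusted p = 0.027).

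Histone modifiers were called lower for 11 (18.3%) and higher for 5 (8.33%) of 60 genes (median 0.00), and the deposited scale gave 11 lower and 12 higher. Over all genes the shares were 11.4% and 10.1%. The highest tercile of level held 32 of the 60, and there they were 21.5% and 20.8%. Kdm6b, a demethylase of histone H3 lysine 27, was at 9.34, 9.26, 8.78 and 9.26 in SCNT and at 10.50, 10.29, 10.36 and 10.59 in fertilized embryos (-1.28 ± 0.15), and its other probe set was lower by -0.88. Nsd1, a methyltransferase of H3 lysine 36, was at 11.82, 11.85, 11.53 and 12.02 against 10.58, 10.56, 10.39 and 10.72 (1.24 ± 0.13), with other probe sets at -0.09 and 1.68. The deacetylase Hdac4 (-1.03 ± 0.27) and the arginine methyltransferase Prmt1 (-0.86 ± 0.24) were lower. The other 2 probe sets of Hdac4 were higher (0.60 and 1.11) and the mean of its probe sets was 0.23 (adjusted p = 0.63). Of 27 histones and histone chaperones, 4 (14.8%) were higher and 3 (11.1%), H1f8 among them, lower (median -0.02), turning to 3 and 5 after median centring. The highest tercile held 19 of the 27, and there 20.8% of all genes were called higher and 21.5% lower.

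Energy metabolism showed no single direction. Of 37 genes of glycolysis, lactate and pyruvate use, 8 (21.6%) were called higher and 2 (5.41%) lower (median 0.10). Median centring turned this to 3 higher and 7 lower. The highest tercile of level held 23 of the 37, and there 20.8% of all genes were called higher and 21.5% lower. Beside Ldha, Aldoc, an aldolase isoform, was higher by 1.11 ± 0.31 (means 5.26 and 4.15), and Mdh2, the mitochondrial malate dehydrogenase, by 0.97 ± 0.27 (means 9.02 and 8.05). Mdh2 did not pass without SCNT replicate 1 (0.78, adjusted p = 0.051). Pfkfb3, which sets the level of a glycolytic activator, was lower (-0.89 ± 0.32, adjusted p = 0.045), near background (means 4.69 and 5.58). It lost its call when any array but SCNT replicate 1 was left out (adjusted p up to 0.15, without SCNT replicate 3), and the difference was -0.01 on the deposited scale and -0.30 after median centring. Of 71 oxidative phosphorylation genes, 4 (5.63%) were higher and 9 (12.7%) lower (median -0.02). Over all genes these shares were 10.1% and 11.4%. In the highest tercile of level, which held 38 of the 71, they were 20.8% and 21.5%. Against that tercile the list was called less often in both directions. The complex II subunit Sdhd was higher by 1.01 ± 0.33 (adjusted p = 0.022), but not after median centring (0.65), with its probe sets averaged (0.61), or without SCNT replicate 1 (0.93), SCNT replicate 2 (0.95) or fertilized replicate 3 (0.86). The complex I subunit Ndufs3 was lower by 0.86 ± 0.19 log2 units.

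Nutrient and ion transporters were called lower for 7 (19.4%) and higher for 2 (5.56%) of 36 genes (median -0.21). They kept that order on the deposited scale (9 against 2) and after median centring (13 against 1). Over all genes 11.4% were called lower and 10.1% higher. The highest tercile of level held 11 of the 36, and there these shares were 21.5% and 20.8%. Slc6a20a, a proline transporter, was at 5.03, 5.61, 5.72 and 5.06 in SCNT and at 7.26, 6.98, 6.92 and 7.27 in fertilized embryos (-1.75 ± 0.28). Slc3a2, the heavy chain shared by several amino acid exchangers, was at 8.97, 8.66, 9.41 and 9.36 against 10.71, 10.50, 10.53 and 10.64 (-1.50 ± 0.12, adjusted p = 4.3e-12). The glycerol and water channel Aqp9 was lower by 1.11 ± 0.12 log2 units, although its other probe set read -0.05. Slc5a3, a transporter of the osmolyte inositol, was lower by 1.05 ± 0.21 log2 units, with other probe sets at -1.14 and 0.24, and the taurine transporter Slc6a6 by 0.84 ± 0.21. The sodium pump subunit Atp1b1 was higher (0.80 ± 0.19), but not after median centring (0.44, adjusted p = 0.088) or as the mean of its probe sets (0.10). The glucose transporter Slc2a1 did not pass (-0.42 ± 0.18, adjusted p = 0.092) on its brightest probe set. It passed on the deposited scale (-0.52), after median centring (-0.80) and as a mean of probe sets (-0.60).

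Protein turnover genes changed in both directions. Ubiquitin ligases and conjugating enzymes were called higher for 14 and lower for 11 of 50 genes (28.0% and 22.0%, median 0.05). Median centring turned this to 2 higher and 17 lower. The highest tercile of level held 39 of the 50, and there 20.8% of all genes were called higher and 21.5% lower. Ube2h (-1.28 ± 0.19), Cul3 (-1.10 ± 0.11), Fbxw11 (-1.02 ± 0.13) and Cul4a (-0.92 ± 0.25), which encode a conjugating enzyme and components of cullin-type ligases, were the largest decreases. All 3 other probe sets of Cul3 were lower, by -1.34 to -0.99. Proteasome subunits were called for 10 of 41 genes, 4 (9.76%) higher and 6 (14.6%) lower (median -0.01). The highest tercile held 34 of the 41, so the list was called less often than all genes there (20.8% higher and 21.5% lower). Psma3 was at 8.02, 8.86, 8.22 and 8.01 in SCNT and at 9.46, 9.53, 9.37 and 9.68 in fertilized embryos (-1.23 ± 0.15). Psmd1 (-1.06 ± 0.12) and Psma5 (-1.001 ± 0.16) were also lower. Psmb7 (-0.98 ± 0.30) overlapped between groups and did not pass without SCNT replicate 1 (-0.88), SCNT replicate 4 (-0.77), fertilized replicate 1 (-0.86) or fertilized replicate 4 (-0.77). Psmd14, a deubiquitinase of the regulatory particle, was higher (0.90 ± 0.16).

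Autophagy and lysosome genes had the largest share of decreases of the 27 lists, with 14 of 40 lower (35.0%) and 7 higher (17.5%), although their median was 0.15. The order held on the deposited scale (14 against 8) and after median centring (16 against 4). Over all genes 11.4% were called lower and 10.1% higher. The highest tercile of level held 20 of the 40, and there these shares were 21.5% and 20.8%. Lamp2, a lysosomal membrane protein, was at 6.65, 6.57, 6.27 and 6.83 in SCNT and at 8.13, 8.14, 7.98 and 7.51 in fertilized embryos (-1.36 ± 0.23), with its 3 other probe sets between -0.94 and 0.31. Atg4a, a protease of the autophagy conjugation system, was lower by 1.04 ± 0.28 log2 units. Atg5, which is needed for the early embryo's autophagy, was higher by 0.94 ± 0.15 on its brightest probe set, while its 2 others differed by -0.75 and -0.09 and the mean of the 3 was 0.03. The protease Ctsl was the list's largest increase.

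Heat shock genes and chaperones were called higher for 8 (19.5%) and lower for 6 (14.6%) of 41 (median 0.08), turning to 2 and 11 after median centring. The highest tercile of level held 31 of the 41, and there 20.8% of all genes were called higher and 21.5% lower. Hsph1, a large heat shock protein, was higher by 1.16 ± 0.15 and the co-chaperone Dnajb6 by 0.79 ± 0.09, with every other probe set of both genes higher too. The inducible Hspa1a did not pass (-0.62 ± 0.29). Leaving out SCNT replicate 2, whose level of 6.48 was above all fertilized arrays, gave -0.96 (adjusted p = 0.013). The constitutive Hspa8 did not pass either (-0.30 ± 0.16), but did after median centring (-0.57, adjusted p = 0.011) and without SCNT replicate 1 (-0.49, adjusted p = 0.021).

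Of 49 p53 and stress response genes, 8 (16.3%) were higher and 6 (12.2%) lower (median 0.04), turning to 5 and 6 after median centring. Over all genes the shares were 10.1% and 11.4%, and 14 of the 49 were in the highest tercile of level. Ei24, a p53-induced protein of the endoplasmic reticulum, was at 9.995, 10.06, 10.09 and 10.03 in SCNT and at 8.93, 8.84, 8.74 and 8.88 in fertilized embryos (1.20 ± 0.09, adjusted p = 4.6e-13). Phlda3, another p53 target, was lower by 1.10 ± 0.29 log2 units, as was Btg1, and the metallothioneins were the largest increases of the list. Hmox1, the inducible heme oxygenase, was higher by 1.30 ± 0.46 (adjusted p = 0.04), with all arrays of both groups near background (means 5.13 and 3.83). It did not pass after median centring (1.14) or when any array but SCNT replicate 3 or fertilized replicate 4 was left out (1.05, adjusted p = 0.15, without fertilized replicate 1).

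Cytoskeletal genes were called higher for 10 (21.3%) and lower for 6 (12.8%) of 47 (median 0.00), turning to 5 and 14 after median centring. The highest tercile of level held 30 of the 47, and there 20.8% of all genes were called higher and 21.5% lower. Tuba1a, an alpha-tubulin, was at 7.44, 7.44, 7.60 and 6.85 in SCNT and at 5.28, 5.83, 5.93 and 6.24 in fertilized embryos (1.51 ± 0.27), on a probe set that may read other tubulins. Tmsb10, which binds actin monomers, was higher by 1.38 ± 0.31, with its 4 other probe sets higher by 0.22 to 0.93. Ezr, which links actin to the membrane, was higher by 1.20 ± 0.20, and the motor protein Kif5b was lower by 1.01 ± 0.14 log2 units. Actb was lower on its brightest probe set (-0.51 ± 0.13) and higher on the other (0.99), and their mean did not pass (0.24, adjusted p = 0.069).

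Of 40 pluripotency and early lineage genes, 4 (10%) were higher and 2 (5%) lower (median -0.06), turning to 2 and 8 after median centring. Over all genes the shares were 10.1% and 11.4%, and 14 of the 40 were in the highest tercile of level. Lin28b, an RNA-binding protein that blocks let-7 maturation, was lower by 1.21 ± 0.29 log2 units beside Sall4. Klf17 (0.30 ± 0.06, means 12.98 and 12.68) and Dppa2 (0.72 ± 0.13) were higher, as were Klf4 (0.56 ± 0.15) and Pou5f1, the Oct4 factor (0.39 ± 0.11, with no overlap of the arrays). After median centring the difference was 0.03 for Pou5f1, 0.35 for Dppa2 and 0.31 for Klf4, and none of the 3 passed. The other probe set of Klf4 read -0.19, and averaging both gave 0.18. Of 31 imprinted or dosage-compensated genes, 2 (6.45%) were higher and 4 (12.9%) lower (median -0.08), against 10.1% and 11.4% of all genes. Xist, the RNA that coats the inactive X chromosome, was at 7.01, 7.49, 7.42 and 7.60 in SCNT and at 6.36, 6.43, 6.27 and 6.30 in fertilized embryos (1.04 ± 0.18). Ube3a, an imprinted ubiquitin ligase, was lower by 1.17 ± 0.13 log2 units with all 4 other probe sets lower, and Grb10 by 0.65 ± 0.17, with other probe sets at -0.09 and 0.25 and a mean over probe sets of -0.16 (adjusted p = 0.53). Of 31 genes known to be switched on at the 2-cell stage, 6 (19.4%) were higher and 3 (9.68%) lower, against 10.1% and 11.4% of all genes. Their median was 0.02, and the counts turned to 3 and 5 after median centring.

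Because the donor nuclei came from cumulus cells and the fertilized embryos received sperm, markers of both were examined. Of 34 cumulus and granulosa genes tested, 7 (20.6%) were higher and 4 (11.8%) lower (median 0.19), against 10.1% and 11.4% of all genes. Their order was kept on the deposited scale (13 against 4) and after median centring (7 against 5). In untreated 1-cell embryos 0 of the 34 were called higher and 1 lower (median -0.03), where 5.56% of all genes were called. Over 13 defining markers the mean level was 5.74 log2 units in SCNT and 5.34 in fertilized embryos (exact p = 0.0286), and the summed intensity was 711 to 871 in SCNT and 654 to 714 in fertilized embryos. Of these markers 7 were above the overall median on all SCNT arrays and 5 on all fertilized arrays. Tnfaip6 (2.35) and Inhba (2.39), already among the leading increases, carried this class mean. Without them the other 11 markers averaged 5.72 in SCNT and 5.68 in fertilized embryos, with overlapping arrays (5.59 to 5.86 and 5.59 to 5.75), and 5 of the 11 were lower in SCNT. The hyaluronan synthase Has2 was at 4.95 to 5.28 in SCNT and 4.95 to 5.43 in fertilized embryos, near background in both. The intermediate filament gene Vim was higher (1.52 ± 0.41), from 3.71 to a mean of 5.24 that is still under the overall median. The gap junction gene Gja1 was higher by 1.01 ± 0.25, with SCNT replicate 3 at 3.86 inside the fertilized range. The 4 decreases of the list were in Bmpr1b, in Fdx1, an electron carrier of steroid synthesis (-0.94 ± 0.18, means 10.05 and 10.996), in Kitl, the ligand of the oocyte's KIT receptor (-0.63 ± 0.19, with no overlap of the arrays), and in the collagen gene Col4a1 (-0.61 ± 0.21). Kitl did not pass with its probe sets averaged (-0.19), without SCNT replicate 1 (-0.51) or without fertilized replicate 2 (-0.55). Col4a1 did not pass with its probe sets averaged (-0.37), without SCNT replicate 1 (-0.61), 3 (-0.57) or 4 (-0.60), or without fertilized replicate 1 (-0.51) or 4 (-0.59).

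The sum over all 42 measured genes of the cumulus list ran the other way, 3900 to 4489 in SCNT and 5122 to 5615 in fertilized embryos. A sum of linear intensities gives most weight to abundant genes, among them Fdx1 and Bmpr1b, which were both lower in SCNT. It therefore does not describe the list as a whole, whose 34 tested genes had a median difference of 0.19 log2 units. Bmpr1b, a BMP receptor on that list, was lower (8.40, 8.35, 7.97 and 8.26 in SCNT against 10.003, 9.82, 9.72 and 9.80), while its other 2 probe sets were higher by 0.79 and 0.90 and the mean of the 3 was 0.03. The part of donor cumulus RNA in the gene differences was not tested.

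No difference in sperm markers was detected. The 10 defining markers averaged 4.92 in SCNT and 4.97 in fertilized embryos (exact p = 0.771), 4 of them were under the overall median on all 8 arrays, and the sum over 37 measured genes was 1858 to 2328 in SCNT and 1987 to 2117 in fertilized embryos. The protamines Prm1 (0.74 ± 0.40, adjusted p = 0.19) and Prm2 (-0.07 ± 0.31), which package sperm DNA, did not pass, and Prm1 passed only on the deposited scale (1.04, adjusted p = 0.044). A single sperm gene of 20 tested was called, Tekt2, a protein of the sperm tail (0.88 ± 0.30, adjusted p = 0.031). It did not pass without SCNT replicate 1 (adjusted p = 0.077), 2 (0.054) or 3 (0.17), or without fertilized replicate 2 (0.11) or 3 (0.059). Of 7 blood cell markers none was above the median on all SCNT arrays, and a single gene, the macrophage gene Cd68, was called, as lower (-0.75 ± 0.23). Cd68 did not pass without SCNT replicate 2 (-0.50, adjusted p = 0.11) or on the deposited scale.

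**Figure D4:**
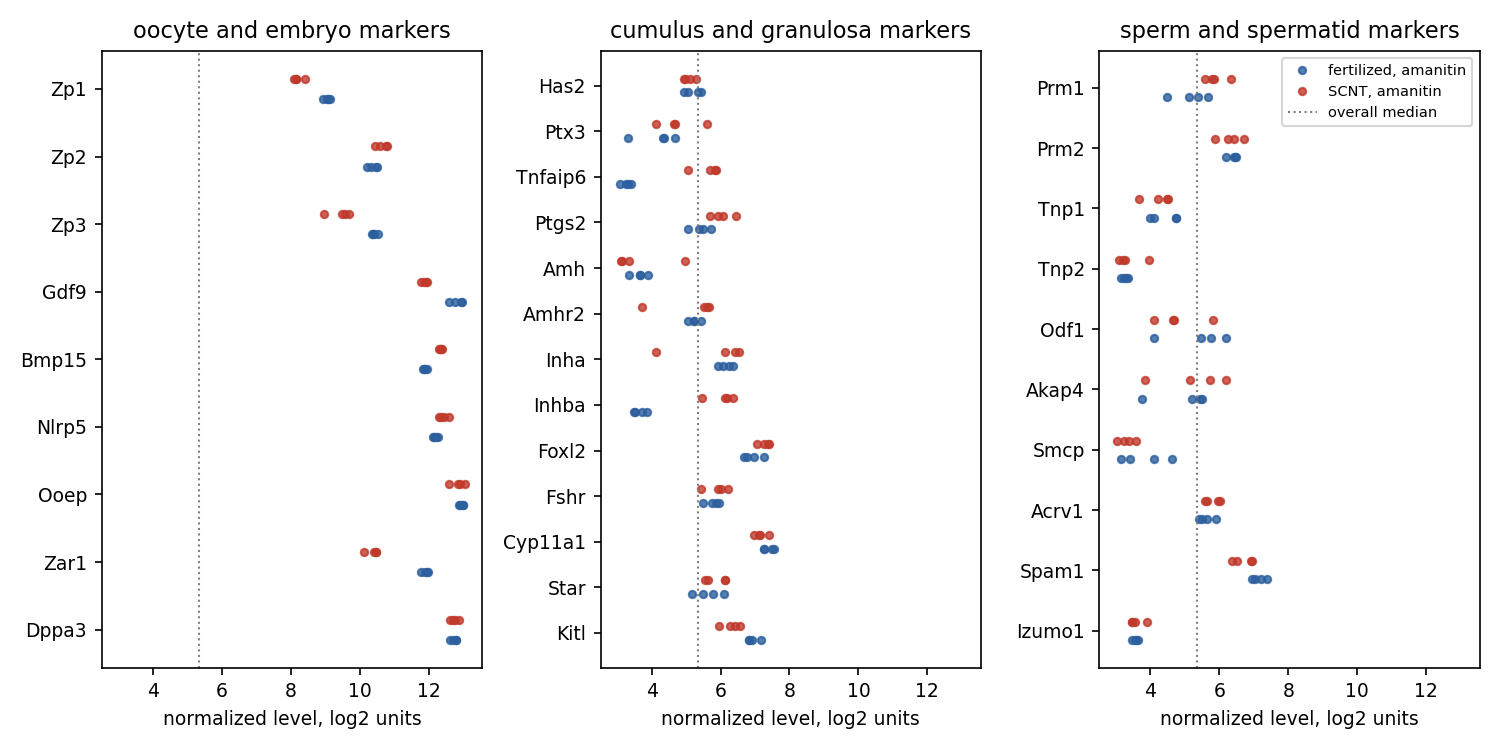
Normalized levels (horizontal axis, log2 units) of defining markers of oocytes and embryos, of cumulus and granulosa cells and of sperm, with a point per array for 4 SCNT (red) and 4 fertilized (blue) arrays and a dotted line at the overall median. All oocyte markers lie to the right of the line, Tnfaip6 and Inhba separate the groups at low levels, and the sperm markers overlap between groups.

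The same contrast without the inhibitor rested on other arrays, 3 untreated SCNT and 4 untreated fertilized 1-cell arrays, and so shares no sample with the treated contrast. It gave fewer calls, 829 genes (5.56%), of which 428 were higher and 401 lower in SCNT. Of the 1513 genes higher with amanitin, 267 were also called higher untreated (17.6% of the treated list and 62.4% of the untreated list) and 1 was called lower. Of the 1701 genes lower with amanitin, 324 were called lower untreated (19.05% and 80.8%) and 8 were called higher. The untreated difference had the same sign for 1294 of the 1513 higher genes and 1341 of the 1701 lower genes, and its median was 0.24 and -0.25 in those genes against 0.00 over all genes. These untreated values are smaller than the treated ones, which chose the genes. The untreated 1-cell SCNT arrays share the missing spike-in signal with the treated ones, and the part of handling in the overlap was not tested.

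Among the leading genes, Ldha (2.10), Ctsl (1.73), Malat1 (2.24), Bex3 (1.78) and Sgk1 (1.62) were called higher in untreated SCNT embryos too. Bub1b (-2.09), Txnip (-1.92), H1f8 (-1.33), Sall4 (-1.30), Zar1 (-1.11), Slc3a2 (-0.997) and Gdf9 (-0.53) were called lower in both conditions. E2f1 (0.97) was higher and Lsm14b (-1.11) lower by almost the treated amount.

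**Figure D5:**
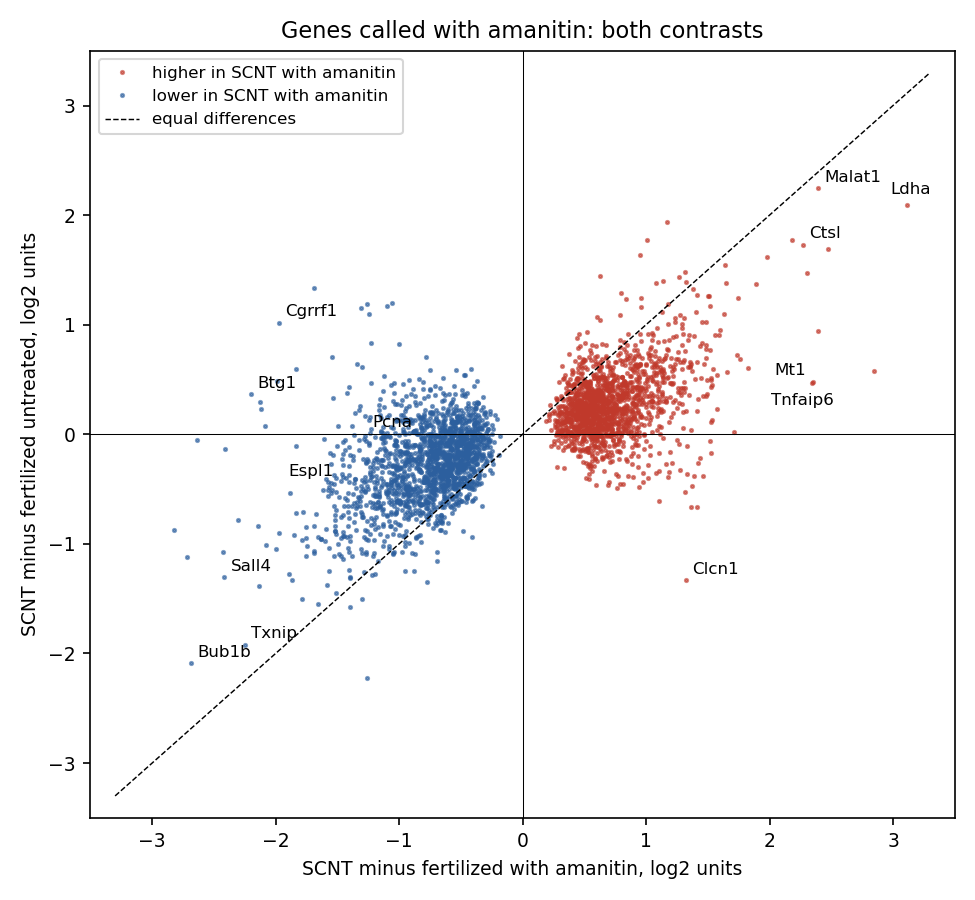
For the 3214 genes called with amanitin, the SCNT minus fertilized difference with amanitin (horizontal axis, log2 units) is plotted against the difference in untreated 1-cell embryos (vertical axis, log2 units), red for genes higher and blue for genes lower with amanitin, with a dashed line where both are equal. Most points fall in the quadrants of equal sign, nearer to 0 on the vertical axis, while Btg1, Cgrrf1 and Clcn1 lie in the opposite quadrants.

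The difference between the treated and untreated contrasts was tested directly. It passed for 359 genes (2.41%), of which 110 had a more positive and 249 a more negative SCNT minus fertilized difference with amanitin. This count depended on the processing more than the counts of the 2 other tests. It was 690 on the deposited scale, 1280 after median centring, 1054 with array weights and 184 when the probe sets of each gene were averaged. Leaving out the treated SCNT replicate 1 gave 217 genes, the untreated SCNT replicates 3 and 4 gave 193 and 227, and the untreated fertilized replicate 1 gave 683. Array measures also differed between the fertilized groups. The array median before normalization was 4.92 to 4.99 in treated and 5.21 to 5.33 in untreated fertilized embryos. The B2 repeat averaged 12.82 and 13.42 there, and 18S ribosomal RNA 13.03 and 13.66. In treated and untreated SCNT embryos the array median averaged 5.24 and 5.25, and the B2 repeat 13.63 and 13.42. The part of handling in the 359 genes was not tested.

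Btg1 had the clearest difference of this kind among the leading decreases, being -2.20 with amanitin and 0.37 without (difference -2.57, adjusted p = 1e-05). Pcna differed by -1.28 with amanitin and -0.05 without, Psma3 by -1.23 and 0.05, Espl1 by -1.46 and -0.23, Trim28 by -1.40 and -0.38, and Aqp9 by -1.11 and -0.19. None of the 5 untreated differences passed the test. The differences of these contrasts were -1.24 for Pcna (adjusted p = 0.00044), -1.28 for Psma3 (0.00064), -1.23 for Espl1 (0.0033), -1.03 for Trim28 (0.0092) and -0.93 for Aqp9 (0.0033). The largest negative values were in Dnmbp (-3.03), Cgrrf1 (-2.99), Gpr137c (-2.59), Btg1 (-2.57) and Rbck1 (-2.48), genes with treated SCNT levels near background.

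In the other direction, the metallothioneins Mt1 (2.34 with and 0.47 without amanitin) and Mt2 (1.83 and 0.60) were raised more in the treated contrast, with differences of 1.88 (adjusted p = 0.0092) and 1.22 (0.0039). Tnfaip6 did so by 1.87 (adjusted p = 0.05, just under the threshold), Fxr1 by 0.95 (0.00083), Ezr by 1.04 (0.047) and Ei24 by 0.73 (0.00097). Apart from a sequence with no gene name, the largest positive values were in Clcn1 (2.65), Tas1r1 (2.45) and Ppp1r3e (2.38), whose treated SCNT means lay between 4.29 and 5.41, at or near background. In the treated contrast itself Tas1r1 (0.96) and Ppp1r3e (0.98) did not pass, and Ppp1r3e was -1.06 without the low-level filter.

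At the 2-cell stage with amanitin, 6445 genes (43.2%) differed between SCNT and fertilized embryos, on arrays that are separate from the 1-cell ones. Control probe sets differed between these groups as well. Poly(A) spike-in controls averaged 11.88 log2 units in SCNT and 8.84 in fertilized 2-cell embryos with amanitin. Hybridization controls averaged 10.88 and 10.04, and the B2 repeat 14.31 and 13.47. Ranges did not overlap for these measures, but did for the other array measures. The part of handling in the 2-cell calls and in the stage differences was not tested. Genes called at the 1-cell stage kept no common direction at the 2-cell stage. Of the 1513 genes higher at the 1-cell stage, 395 were called higher and 517 lower at the 2-cell stage, and of the 1701 lower genes, 591 were called lower and 531 higher. The test of the difference between the stages passed for 5293 genes (35.5%), 3064 with a more positive and 2229 with a more negative difference at the 1-cell stage.

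Ldha was higher in SCNT at the 1-cell stage (3.11) and lower at the 2-cell stage (-0.99), and Ctsl likewise (2.27 and -1.93). Txnip was lower at 1 cell (-2.25) and higher at 2 cells (0.79), as were the zona genes Zp1 (-0.85 and 1.47) and Zp3 (-0.99 and 0.96). Malat1 was higher at both, by 2.39 and 4.84. Sall4 (-2.42 and -2.36), H1f8 (-1.87 and -2.02), Gdf9 (-0.93 and -1.03), Lsm14b (-1.22 and -1.22) and E2f1 (1.09 and 0.91) had similar differences at both stages, and the test of the stage difference did not pass for any of the 5. Eef1e1 went from 1.09 to -2.89 and Polr2a from -0.24 to -2.67.

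The largest stage differences were in genes that differed mainly at the 2-cell stage. Aasdh (0.24 and -4.56), Aplf (-0.16 and -4.93), Rbbp4 (-0.37 and -4.81) and Ewsr1 (-0.06 and -4.48) did not pass at the 1-cell stage and were lower in SCNT at the 2-cell stage. At the 1-cell stage Ewsr1 passed with its probe sets averaged (-0.91) and Rbbp4 with only the 8 arrays (-0.36). Bloc1s2 was higher at 1 cell (1.30) and lower at 2 cells (-3.14). Marchf6 (-1.55 and 2.42), Cep135 (-0.88 and 3.07), Mfap3l (-1.24 and 2.45), Rbck1 (-1.99 and 1.52) and Dnmbp (-1.69 and 1.78) ran the other way. At the 1-cell stage Mfap3l did not pass with probe sets averaged (-0.58), and neither did Dnmbp (-0.47).

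Parthenogenetic embryos, activated without sperm and without nuclear transfer, offered a further comparison from untreated arrays that the treated contrast does not share. Against untreated fertilized 1-cell embryos 3040 genes (20.4%) differed. Of the 1513 genes higher in treated SCNT embryos, 252 were called higher and 209 lower in parthenogenetic embryos, and of the 1701 lower genes, 381 were called lower and 370 higher, with medians of -0.01 and 0.00. Mt1 (-2.10) and Mt2 (-1.88), which were higher in treated SCNT embryos, were lower in parthenogenetic ones, and so was Sgk1 (-1.37). Bub1b (-2.31), Txnip (-3.38), Zar1 (-1.37), Zp3 (-1.15), Lsm14b (-1.39) and Sall4 (-1.40) were lower, and Ctsl (1.88), Ldha (1.49) and E2f1 (1.03) higher, as in the treated SCNT contrast.

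Where a gene had several probe sets they often did not move together. The 1898 called genes with more than 1 usable probe set had 3458 other probe sets, of which 2139 had the same sign as the one that stood for the gene, 673 were called in the same direction and 221 in the opposite direction. A call here is therefore a statement about a probe set, and the probe sets of a gene can read different transcript ends.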

How the data were processed

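Samples of poly(A) RNA were labelled with biotin and hybridized to Affymetrix mouse arrays, per the labels' protocols and the platform's gene annotation. The authors deposited a table of linear signal intensity for 45101 probe sets, in which the 2% trimmed mean is 150.001 on every array with values. The scaling software is not given in the sources used here, and no detection calls or probe sequences were used. To each intensity 6.9, the 20th percentile, was added before log2, and the 39 arrays were brought to a common distribution by quantile normalization. A probe set entered if 4 or more arrays exceeded 5.34, the overall median (31153 did), and the brightest with a single gene stood for each of 14916 genes, named from the platform annotation and, for 14818, from RefSeq by gene ID. limma 3.58.1 (R 4.3.3) fitted 10 group means with an intensity trend and 29 residual degrees of freedom, with Benjamini-Hochberg adjustment over all genes. Array measures and marker means were compared with exact two-sided permutation tests. A probe set name ending in x_at or s_at marks probes that may read other transcripts. Besides Mt1 and Tuba1a, such probe sets stood for Bub1b, Xist, Vim, Gja1, Trim28, Ezr, Tmsb10, Cnot2, Cnot7, Eif4h, Fbxw11, Klf17 and Dppa2, among others. The fit was tested on simulated data. Members, gene lists and the naming rule (the 15 largest non-overlapping calls each way, up to 6 called and 3 other members of a list, the 5 largest values each way of the 2 differences between contrasts, and 30 fixed genes, of which 25 were tested) were chosen with earlier results of these data known. Tekt2, Cd68, Tle6, Uchl1, Zp2, Kitl, Fdx1, Col4a1 and comparisons of single genes across contrasts beyond that rule were chosen after their values were seen. Replicate numbers did not pair samples. The number of arrays limits the precision.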

Additional observations from a re-analysis of the deposited data

Results flagged for a closer look

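Among 4 arrays a single array stood apart from the other 3 for some named genes. In SCNT these were Klhl29 (replicate 2 at 4.42), Cpeb1 (replicate 2 at 9.59), Gja1 (replicate 3 at 3.86), Eif4h (replicate 4 at 11.002), Kdm6b (replicate 3 at 8.78), Psmd1 (replicate 2 at 9.99), Pou5f1 (replicate 1 at 10.30) and Marchf6 (replicate 3 at 5.34). In fertilized embryos these were H1f8 (replicate 4 at 10.47), Btg4 (replicate 4 at 13.62), Pkmyt1 (replicate 2 at 9.17), Wee2 (replicate 2 at 12.12), Taf7 (replicate 3 at 10.48), Dnmt3a (replicate 3 at 11.49), Dppa2 (replicate 4 at 10.10), Ndufs3 (replicate 2 at 8.47), Slc5a3 (replicate 4 at 6.10), Hmox1 (replicate 1 at 3.08) and Phlda3 (replicate 2 at 5.07). These are 19 of 320 groups examined (5.94%), and chance sets apart an array in about 1 of 20 such groups. Of the array measures, the poly(A) spike-in controls of SCNT replicate 3 (3.67), the hybridization controls of fertilized replicate 1 (9.87) and its 3′ minus 5′ difference of the Gapdh control (2.58) also stood apart.

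The SCNT minus fertilized contrast differed between amanitin and untreated 1-cell embryos for 359 genes by a test of the difference. For named genes that difference (amanitin minus untreated) was Clcn1 2.65, Tas1r1 2.45, Ppp1r3e 2.38, Mt1 1.88, Tnfaip6 1.87, Mt2 1.22, Ezr 1.04, Fxr1 0.95, Ei24 0.73 and Cnot2 0.62. Negative values were Dnmbp -3.03, Cgrrf1 -2.99, Gpr137c -2.59, Btg1 -2.57, Rbck1 -2.48, Eri3 -2.16, Pole -1.95, Pde8a -1.60, Psma3 -1.28, Marchf6 -1.27, Pcna -1.24, Espl1 -1.23, Sall4 -1.12, Haus4 -1.07, Trim28 -1.03, Papola -0.98, Aqp9 -0.93, Kdm6b -0.89 and Fbxw11 -0.75.

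With amanitin the contrast differed between the 1-cell and 2-cell stages for 5293 genes. Among the genes set side by side between stages, the difference (1-cell minus 2-cell) was Aasdh 4.80, Aplf 4.77, Bloc1s2 4.44, Rbbp4 4.43, Ewsr1 4.42, Ctsl 4.20, Ldha 4.11, Eef1e1 3.98 and Polr2a 2.43. It was Marchf6 -3.96, Cep135 -3.95, Mfap3l -3.68, Rbck1 -3.52, Dnmbp -3.47, Txnip -3.04, Malat1 -2.45, Zp1 -2.32 and Zp3 -1.96.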

How the results depend on the processing

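Over the settings tried, the count of genes called between SCNT and fertilized 1-cell embryos with amanitin ran from 2529 to 4204, against 3214 as reported. Using only the 8 compared arrays gave 4038. Leaving out each of the 8 arrays in turn gave 2658 to 2957. On the deposited scale 2508 genes were higher, and after median centring 772 were higher and 3049 lower. The difference between the treated and untreated contrasts (359 genes) was least stable, at 690 on the deposited scale, 1280 after median centring, 184 with probe sets averaged and 1054 with array weights, and from 193 to 683 with 1 array left out. Leave-one-out counts of the difference between stages ran from 5044 to 5275. Same-numbered samples did not deviate together (correlations of 0.0225, 0.0082, 0.0096 and -0.0298, with 1 of 8 arrays closest to its own number), and the replicate block gave 3215, 343 and 5322 calls for these 3 results. The actin 3′ minus 5′ control as a covariate, chosen after seeing the data, gave 2664 calls, 1226 higher and 1438 lower.

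Of 160 named genes, the sign turned for Btg4 on the deposited scale (0.65), for Ppp1r3e with no filter (-1.06), for Zp2 after median centring (-0.10), for Bmpr1b (0.0331), Actb (0.24), Eif1ax (-0.28) and Hdac4 (0.23) with probe sets averaged, and for Pkmyt1 (0.26) and Mfap3l (0.20) with only the 8 arrays. In all of these but Btg4 and Zp2 another probe set, or the mean of several, stood for the gene. Averaging probe sets ended 15 calls and median centring 13. Without Tnfaip6 and Inhba, left out after seeing the data, the cumulus marker difference went from 0.40 to 0.04. The low-level filter looks at all 39 arrays, so genes near background in the compared groups, such as Rps19, Hmox1 and Vim, were still tested.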
